A study of Rattus norvegicus with 18 samples.

Results

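The genes described here are 39 genes of ribosome biogenesis, the making of ribosomal subunits in the nucleolus. They were taken by symbol from the platform annotation, each through the brightest of the probe sets that carry its symbol alone, and a member was kept where that probe set exceeded log2 4 in 3 or more arrays. Of the 39, 38 had such a probe set, and all 38 passed, among 9149 genes tested in all. The 1 left out was Npm1, the gene of the nucleolar chaperone nucleophosmin, whose 3 probe sets on the array each carry several symbols. The member nearest to the limit was Rrp9, above log2 4 in 16 of the 18 arrays, and the other 37 were above it in every array. The cells were NRK-52E, an established line of rat kidney epithelium labelled as proximal tubule and of Osborne-Mendel origin. Confluent cultures received the fungicide chlorothalonil (1.1 µM, dissolved in 0.1% DMSO) or the same share of DMSO without it, and RNA was taken after 6, 24 or 72 h. The dose is the one labelled as inhibiting by 10% at 72 h. Each of the 6 groups had 3 Affymetrix rat arrays, labelled as biological replicates, which makes 18 arrays in all. Nothing says whether the replicates came from separate passages or days, so p-values measure the spread between these arrays.

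Ribosome assembly starts when RNA polymerase I copies the ribosomal DNA into a long precursor RNA. Small nucleolar ribonucleoproteins (snoRNPs) guide chemical marks on that precursor, the small subunit processome folds and cuts it, and separate sets of factors then build the small and the large subunit. The genes of these factors are commonly transcribed together and follow growth and the Myc transcription factor, and disturbed assembly frees ribosomal proteins that hold back Mdm2, the brake on p53. In kidney tubule cells as in others, this pathway is among the largest users of energy in a growing cell.

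Some properties of the arrays touch every value below. The values are log2 levels that were brought to a common scale across arrays before deposit, so a difference is relative to the bulk of transcripts. The bacterial poly-A control RNAs, added by the labelling kit, read higher after chlorothalonil at all 3 times, with means of 10.6, 10.9 and 10.7 on the log2 scale at 6, 24 and 72 h against 9.98, 9.79 and 10.0 in DMSO. How much of them was added to each sample is not given in the sources used here. One DMSO array at 24 h (replicate 1) had a poly-A mean of 8.97, against 10.1 and 10.3 in the other two. When every array was scaled to these controls instead, the median difference of all 9149 genes became -0.63 at 6 h, -1.02 at 24 h and -0.60 at 72 h, where on the deposited scale it was -0.0097, 0.057 and 0.074. Each direction below is therefore given on the deposited scale. Where a called difference of a member has the other sign after poly-A scaling, that value follows it in parentheses, marked poly-A. A called difference without such a value kept its sign on that scale but need not have kept its call. In cultures measured in bulk, fewer cells of a kind and less RNA per cell cannot be told apart. The gap between the 3′ and 5′ actin probe sets, a sign of RNA length, was 0.90 to 1.32 at 6 and 24 h and 1.51 to 2.02 at 72 h, in ranges that overlapped between treatments at 6 and 72 h. At 24 h it was 1.03 to 1.16 in treated arrays and 1.23 to 1.32 in DMSO arrays, and its part in the 24 h differences was not tested. Hybridization controls, which check the hybridization and staining steps, were low in DMSO at 6 h replicate 2, at 10.4 against 11.7 and 11.6. Among the treated arrays at 6 h, replicate 1 was also lower, at 11.07 against 11.97 and 11.99.

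At 24 h every one of the 38 members was higher in treated than in DMSO arrays on the deposited scale. The gap came with a fall in DMSO, since between 6 and 24 h the median member fell by 1.47 in the DMSO arrays and fell by 0.53 in the treated ones. The median member was 1.5 higher on the log2 scale, while the median of all 9149 genes differed by 0.057. With limma's moderated test, adjusted over all genes, 38 members were called higher and 0 lower, where 39.1% of all genes were called higher and 31.1% lower. At least 2-fold higher were 30 members, against 10.6% of all genes. In each of the 38, all 3 treated arrays lay above all 3 DMSO arrays, which held for 40.4% of all genes. Scaled to the poly-A controls, the members' median was 0.43 against -1.02 for all genes, 28 of the 38 lay above 0 and 8 were called higher. The share of all genes called higher on that scale is not given here, so the 8 have no background beside them. The members' poly-A median was 0.81 without DMSO replicate 1 and 0.093 without DMSO replicate 3, so it moves with single arrays.

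At 6 h the members differed from Polr1c at -0.67 to Rrp9 at 1.46 on the log2 scale. The members' median difference was 0.45 on the deposited scale, against -0.0097 for all genes, with 26 called higher and 1 lower, and it turned to -0.17 on the poly-A scale, where 1 was called higher. Of all genes, 27.8% were called higher and 31.8% lower at that time on the deposited scale, and their poly-A median was -0.625. Their share called on the poly-A scale at 6 h is not given here. The 3 treated arrays lay above the 3 DMSO arrays in 27 members and below them in 1, against 32.1% and 34.7% of all genes. The 1 that fell was Polr1c, a subunit that RNA polymerases I and III share. At least 2-fold higher were Rrp9 and Dkc1, which makes 2 members, against 4.62% of all genes. For Dkc1 the size rests in part on DMSO replicate 2, which stood below the other DMSO arrays and had the lowest hybridization controls.

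At 72 h the members ran from Ltv1 at -0.42 to Wdr43 at 1.15. The median difference was 0.37 on the deposited scale, against 0.074 for all genes, with 24 members called higher and 4 lower, and it turned to -0.30 on the poly-A scale, where 0 were called higher and 7 lower. Among all genes 37.2% were called higher and 27% lower on the deposited scale. On the poly-A scale 3776 of the 9149 genes were called, a count not split by direction here, and the median of all genes was -0.60. The members called lower were Imp3, Ltv1, Bop1 and Ddx21, and without treated replicate 3 or DMSO replicate 3 that count was 2. Treated arrays lay above DMSO arrays in 24 members and below them in 6, against 40.1% and 30.5% of all genes. Only Wdr43 was at least 2-fold higher, 1 member of 38 against 7.68% of all genes, and a second probe set of Wdr43 gave -0.13. Further probe sets of Polr1d, Mrto4, Imp4 and Nolc1, all called higher at 72 h, also had the other sign, though another of Nolc1 did not.

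The levels over time are given next. For each array the median over members was taken relative to the mean of DMSO at 6 h. The DMSO arrays at 6 h lay between -0.092 and 0.063. The treated arrays at 6 h lay at 0.44, 0.45 and 0.46. By 24 h the DMSO arrays had dropped to between -1.57 and -1.44, while the treated arrays were between -0.11 and 0.044. By 72 h the DMSO arrays were at -1.37 to -1.24 and the treated arrays at -0.94 to -0.85. The 2 treatments did not overlap at any of the 3 times, and the treated arrays at 24 h lay within 0.11 of the DMSO mean of 6 h.

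**Figure D1:**
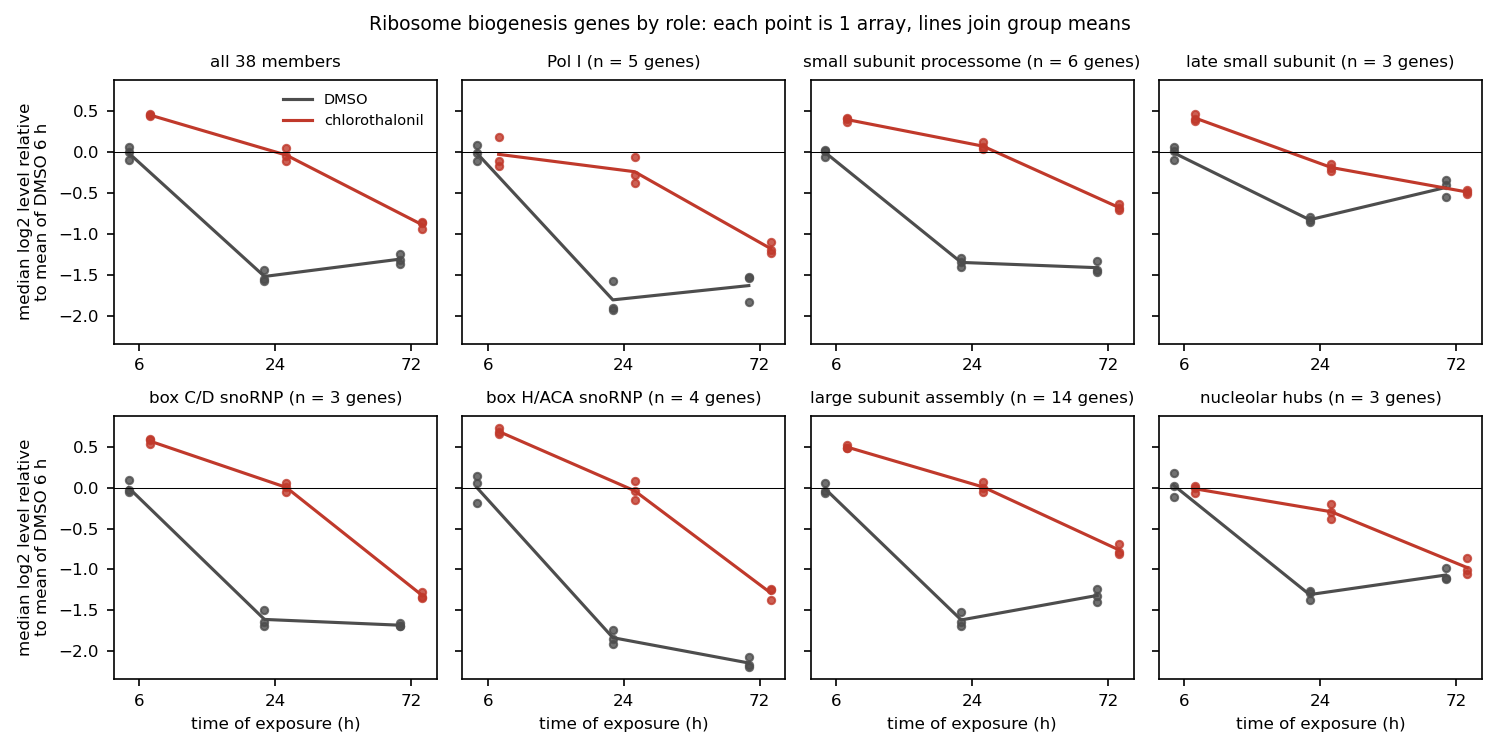
Median log2 level of the members in each array, relative to the mean of the DMSO arrays at 6 h, against time of exposure in hours, for all 38 members and for each role. Points are arrays, lines join group means, and values are on the deposited scale, where DMSO arrays of all members lie at -1.57 to -1.44 at 24 h and treated arrays at -0.11 to 0.044; on the poly-A scale the treatment difference turns at 6 and 72 h.

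**Figure D2:**
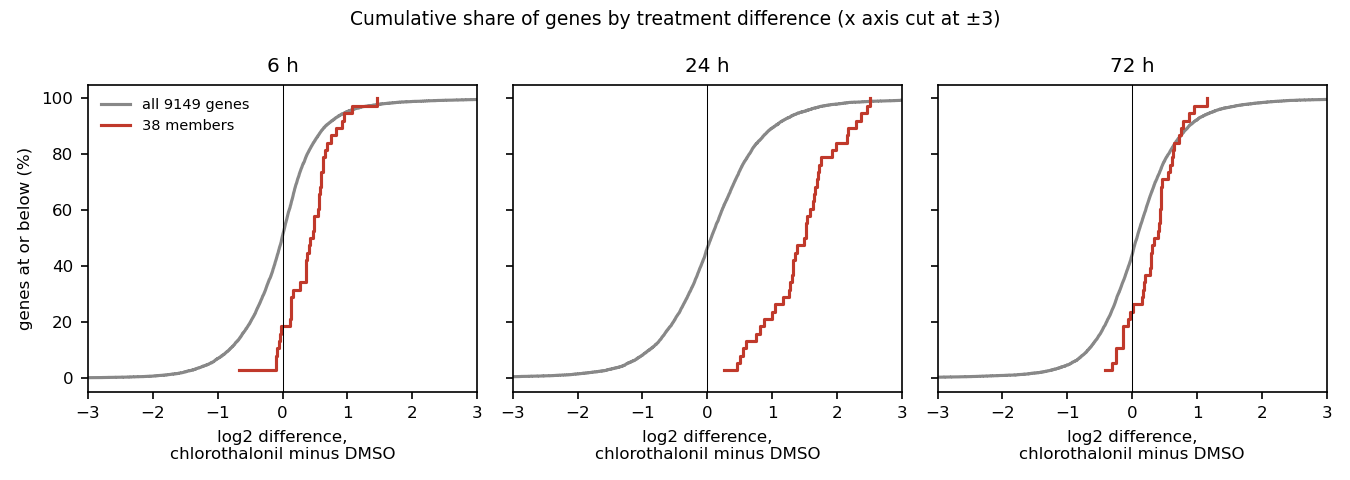
Cumulative percent of genes against the log2 difference of chlorothalonil minus DMSO at 6, 24 and 72 h, for the 38 members and all 9149 genes on the deposited scale. At 24 h the members' curve starts at 0.25 and its middle is at 1.5, against 0.057 for all genes, and at 6 and 72 h the members' middles of 0.45 and 0.37 turn to -0.17 and -0.30 on the poly-A scale.

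Since the members moved together, the 250 bases before each RefSeq start (build GRCr8) were searched for 6 short motifs on both strands, as a description only. RefSeq promoters were matched by symbol for 34 of the 38 members. None of the 6 motifs contains another, although matches can share bases. The motif CCGGAAGT, of the kind that ETS factors bind, was in 12 of the 34 members (35.3%), against 7.58% of the 8604 tested genes with a promoter and 3.1% of all 33469 promoters. Its reverse complement reads ACTTCCGG. The E-box CACGTG, the sequence that Myc with Max binds, was in 6 of the 34 (17.6%), against 8.58% of tested genes and 5.59% of all promoters. The GC-box GGGCGG was in 55.9% of the members' promoters and 60.1% of those of tested genes. The motif GCGCATGC was in 2.94% against 5.11%, TGATGNAA in 2.94% against 1.75%, and GAANNTTC in 8.82% against 4.95%. Over all promoters those 4 shares were 30.5%, 2.2%, 3.4% and 7.23% in the same order. The median 24 h difference was 1.35 in the 12 members with CCGGAAGT and 1.56 in the 22 without, and it was 1.30 in the 6 members with CACGTG and 1.53 in the 28 without. The ranges overlapped, from 0.25 to 2.17 with CCGGAAGT and from 0.51 to 2.51 without, and the difference was not tested. The windows below are the 100 bases around or next to the motif for the 3 members of each motif with the largest 24 h differences, with the motif in capitals. They show how close to the start each motif sits.

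Polr1e (CCGGAAGT on the reverse strand, 13 bases before the start; chr5:64075023-64075122, plus strand): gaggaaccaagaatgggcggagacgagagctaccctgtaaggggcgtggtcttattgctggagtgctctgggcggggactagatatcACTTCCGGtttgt
Gar1 (CCGGAAGT on the reverse strand, 54 bases before the start; chr2:221056750-221056849, minus strand): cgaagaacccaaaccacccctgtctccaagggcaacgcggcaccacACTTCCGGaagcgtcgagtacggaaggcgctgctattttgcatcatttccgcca
Nhp2 (CCGGAAGT, 20 bases before the start; chr10:36377920-36378019, plus strand): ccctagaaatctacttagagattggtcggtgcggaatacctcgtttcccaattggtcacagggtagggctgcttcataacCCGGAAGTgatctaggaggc
Gnl3 (CACGTG, 25 bases before the start; chr16:6219783-6219882, minus strand): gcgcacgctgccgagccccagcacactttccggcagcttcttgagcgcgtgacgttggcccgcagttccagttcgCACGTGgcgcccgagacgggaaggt
Dkc1 (CACGTG, 184 bases before the start; chrX:157751420-157751519, plus strand): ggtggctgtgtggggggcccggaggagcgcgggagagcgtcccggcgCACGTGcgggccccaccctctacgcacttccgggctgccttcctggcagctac
Rrp1 (CACGTG, 16 bases before the start; chr20:10260480-10260579, plus strand): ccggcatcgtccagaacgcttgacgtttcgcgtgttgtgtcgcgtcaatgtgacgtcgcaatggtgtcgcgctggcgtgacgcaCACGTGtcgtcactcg

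The promoters of Dkc1 and Ltv1 hold both motifs. In the Dkc1 window the second one stands in lower case.

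RNA polymerase I copies the ribosomal DNA, and 5 of its subunits are members. At 24 h all 5 were called higher on the deposited scale, 3 of them at least 2-fold, and 3 of the 5 stayed above 0 on the poly-A scale. Of all genes, 39.1% were called higher at 24 h and 10.6% at least 2-fold, which also stands beside the counts of the roles below. Polr1b, the second-largest subunit and part of the active centre, read 5.49, 5.72 and 5.23 in the DMSO arrays at 24 h and 7.89, 8.02 and 7.65 in the treated arrays. Its groups lay almost 2 log2 units apart without overlap, a difference of 2.37 ± 0.14 (SE, 3 against 3 arrays), or 5.18-fold, with a limma adjusted p of 1.47e-09. At 6 h the Polr1b arrays overlapped, with 8.56, 8.47 and 8.89 in DMSO and 8.74, 8.39 and 8.47 treated. At 72 h they were 7.11, 6.81 and 7.09 in DMSO and 7.44, 7.40 and 7.53 treated, a difference of 0.45 (poly-A -0.22) that lost its call without DMSO replicate 2 (limma adjusted p = 0.0643). Polr1e, which helps the enzyme start transcription, was higher at all 3 times, by 0.83, 2.17 and 0.29 (poly-A -0.38) at 6, 24 and 72 h, the last of these not called without DMSO replicate 1 at 72 h (limma adjusted p = 0.0526). For Polr1a, the largest subunit, the difference was called only at 24 h, at 1.70, and the values at 6 and 72 h were -0.081 and -0.025. Polr1c and Polr1d are the pair that RNA polymerase I shares with RNA polymerase III, and their 24 h differences of 0.25 and 0.60 (poly-A -0.82 and -0.47) were the smallest of the 5. The Polr1c arrays at 6 h were 10.57, 10.62 and 10.58 in DMSO and 9.97, 9.79 and 10.00 treated, so it fell by 0.67 (SE 0.064, limma adjusted p = 4.07e-07). It was then higher by 0.25 at 24 h, where DMSO arrays read 10.02, 10.06 and 9.93 and treated arrays 10.30, 10.24 and 10.21, and its 72 h difference of -0.13 was not called. With array medians centred that 72 h value was -0.23 and called (limma adjusted p = 0.00368), as it was with quantile normalization and array weights. Polr1d was higher by 0.38 at 6 h and by 0.62 at 72 h (poly-A -0.24 and -0.055).

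The small subunit processome is the large particle that folds and cuts the precursor around the U3 snoRNA. All 6 members were called higher at 24 h on the deposited scale, 5 of them at least 2-fold, and 5 stayed above 0 on the poly-A scale. Rrp9, a protein bound to U3 itself, had the largest difference. Its 24 h arrays read 4.15, 4.30 and 4.95 in DMSO and 7.16, 6.54 and 6.57 treated, and the difference was 2.29 ± 0.31 (SE), or 4.88-fold. At 6 h it was already higher by 1.46, with 6.79, 6.29 and 7.14 in DMSO and 8.12, 8.34 and 8.14 treated. At 72 h the Rrp9 arrays overlapped, 1 of 3 arrays in each group lay below log2 4, and the difference of 0.19 was not called. Wdr43, which joins the processome early on the nascent transcript, was higher at all 3 times, by 0.62, 1.64 and 1.15. Its second probe set gave -0.13 at 72 h. Heatr1, another early processome protein, was called at 24 h alone, at 1.58, with 0.13 at 6 h and 0.18 at 72 h. Imp4 and Imp3 bind U3 together. Imp4 was higher by 0.43 (poly-A -0.19), 1.52 and 0.45 (poly-A -0.22), and the last was 0.053 and not called with the mean of its probe sets (limma adjusted p = 0.643). Imp3 differed by -0.097 at 6 h (not called), was higher by 0.82 at 24 h (poly-A -0.26) and fell by 0.25 at 72 h. Imp3 had the smallest 24 h difference of the 6, with 8.90, 8.96 and 8.52 in DMSO and 9.57, 9.63 and 9.64 treated. At 72 h its arrays were 9.40, 9.50 and 9.52 in DMSO and 9.22, 9.24 and 9.21 treated. That call was lost without any 1 of treated replicates 1 and 3 or DMSO replicates 2 and 3, with limma adjusted p from 0.0523 to 0.0696. Nop14, a scaffold of the particle, was higher by 0.37 (poly-A -0.25), 1.35 and 0.34 (poly-A -0.33).

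Late small subunit factors act on the particle after it leaves the nucleolus. All 3 members were called higher at 24 h on the deposited scale, 1 of them at least 2-fold, but only Tsr1 stayed above 0 on the poly-A scale. Tsr1, a factor of cytoplasmic maturation, read 9.92, 10.18 and 9.97 in DMSO and 11.28, 11.32 and 11.24 treated at 24 h, a difference of 1.26 ± 0.071 (SE), or 2.39-fold. Its 6 h difference of -0.055 was not called, and at 72 h it was higher by 0.42 (poly-A -0.25). Nob1, the nuclease that cuts the end of the small subunit RNA, differed by nearly the same amount at each time, at 0.56, 0.51 and 0.42 (poly-A -0.058, -0.57 and -0.25). Ltv1, which helps the particle leave the nucleus and mature, turned from higher to lower. It was higher by 0.41 at 6 h and by 0.46 at 24 h (poly-A -0.20 and -0.61), where the DMSO arrays read 9.23, 9.29 and 9.25 and the treated arrays 9.76, 9.63 and 9.76. At 72 h the DMSO arrays read 9.91, 10.03 and 10.10 and the treated arrays 9.57, 9.60 and 9.62, so that Ltv1 fell by 0.42 (SE 0.082, limma adjusted p = 0.000424).

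Box C/D snoRNPs place methyl groups on ribosomal RNA. All 3 members were called higher and at least 2-fold higher at 24 h on the deposited scale, and all 3 stayed above 0 on the poly-A scale. Nop56, a core protein of the particle, read 10.30, 10.49 and 10.34 in DMSO and 12.09, 11.94 and 12 treated at 24 h, a difference of 1.63 ± 0.068 (SE), or 3.09-fold. It was also higher at 6 h by 0.57 and at 72 h by 0.45 (poly-A -0.048 and -0.22). Its partner Nop58 was higher by 0.66, 1.31 and 0.64 (poly-A -0.032). Fbl, the methyltransferase fibrillarin, read 11.60, 11.91 and 11.75 in DMSO and 12.90, 12.90 and 12.95 treated at 24 h, a difference of 1.16. Its differences of 0.13 at 6 h and -0.057 at 72 h were not called, though the first was 0.22 and called with array medians centred (limma adjusted p = 0.0262).

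Box H/ACA snoRNPs turn uridine into pseudouridine. All 4 members were called higher at 6 h and at 24 h, where all were at least 2-fold higher, and 3 of the 4 at 72 h. Among all genes the shares called higher at 6, 24 and 72 h were 27.8%, 39.1% and 37.2% on the deposited scale. After poly-A scaling all 4 were still above 0 at 24 h, 3 at 6 h and 2 at 72 h. Gar1, a core protein, read 9.13, 9.34 and 9.10 in DMSO and 11.28, 11.12 and 11.15 treated at 24 h, a difference of 1.99 ± 0.076 (SE), or 3.97-fold, with a limma adjusted p of 1.40e-11. Its 6 h arrays were 11.30, 11.45 and 11.37 in DMSO and 12.06, 12.04 and 11.89 treated, and at 72 h they were 9.18, 9.19 and 9.34 against 9.74, 9.79 and 9.82. The Gar1 groups did not overlap at any time, and the differences at 6 and 72 h were 0.63 and 0.55 (poly-A -0.12 for the second). Nhp2, another core protein, was higher by 0.54 (poly-A -0.073), 1.67 and 0.95. Nolc1, a chaperone of snoRNPs in the nucleolus, was higher by 0.75, 1.92 and 0.88. Dkc1, the pseudouridine synthase dyskerin, read 9.0, 9.10 and 9.13 in DMSO and 10.78, 10.37 and 10.22 treated at 24 h, a difference of 1.38. At 6 h its DMSO arrays were 10.48, 9.67 and 10.48 and its treated arrays 11.28, 11.30 and 11.26, so that 1 DMSO array stood below the other two, and the difference was 1.07 ± 0.18 (SE). Its 72 h difference of 0.15 was not called.

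Large subunit assembly factors were the largest role, with 14 members. All 14 were called higher at 24 h on the deposited scale, 13 of them at least 2-fold, and 11 remained positive with poly-A scaling. At 6 h 11 were called higher, and at 72 h 11 were called higher and 1 lower, though on the poly-A scale 11 of the 14 lay below 0 at each of these times. Among all genes 27.8% were called higher at 6 h, and 37.2% higher and 27% lower at 72 h, on the deposited scale. Wdr12, Bop1 and Pes1 form the PeBoW complex, which is needed to cut the precursor between the large subunit RNAs. Wdr12 read 7.98, 8.25 and 7.35 in DMSO and 10.48, 10.27 and 10.37 treated at 24 h, the largest difference of the 38 members, at 2.51 ± 0.15 (SE), or 5.71-fold. Its arrays were 10.02, 9.99 and 10.22 in DMSO and 11.04, 11.02 and 10.99 treated at 6 h, and 8.01, 7.99 and 8.01 against 8.70, 8.73 and 8.77 at 72 h. Wdr12 groups thus did not overlap at any time, with differences of 0.94 at 6 h and 0.73 at 72 h. Bop1 was higher by 0.68 at 6 h and by 1.76 at 24 h, and fell by 0.25 at 72 h, a call that was lost without any 1 of treated replicates 1 and 3 or DMSO replicates 2 and 3 (limma adjusted p from 0.0642 to 0.114). Pes1 was higher by 0.47, 1.0 and 0.58 (poly-A -0.15, -0.074 and -0.093). So the 3 partners of 1 complex differed in their 72 h direction on the deposited scale, where Pes1 turns with poly-A scaling and the Bop1 call rests on single arrays.

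Mrto4, a relative of a ribosomal stalk protein that holds its place during assembly, was higher by 0.58 (poly-A -0.037), 2.46 and 0.79, and its 24 h difference was 5.48-fold. Grwd1, a WD-repeat nucleolar protein, was higher by 2.15 at 24 h and 0.75 at 72 h, and its 6 h difference of 0.12 was not called. The nucleolar GTPases differed from each other in time. Gnl3, also called nucleostemin, was higher by 0.60 (poly-A -0.015), 1.70 and 0.46 (poly-A -0.21). Gnl2 was higher by 0.91 at 6 h and 1.04 at 24 h (poly-A -0.036 at 24 h), with 0.012 at 72 h (not called). Nop2, a cytosine methyltransferase of ribosomal RNA, was higher by 0.48 (poly-A -0.14) and 1.73 at 6 and 24 h. Its 72 h difference of 0.31 (poly-A -0.36) had a limma adjusted p of 0.0456 and was not called without any 1 of 11 of the 18 arrays, all 3 treated ones and DMSO replicates 1 and 2 of that time among them. Nop16 was higher by 0.59 (poly-A -0.027), 1.53 and 0.43 (poly-A -0.24). Wdr74, a partner of a remodelling ATPase, was higher by 0.48 (poly-A -0.14), 1.52 and 0.28 (poly-A -0.39). Ebna1bp2, an early large subunit factor, was higher by 0.28 (poly-A -0.34), 1.31 and 0.29 (poly-A -0.38). Rrp1, another, was higher by 0.36 (poly-A -0.25), 1.33 and 0.40 (poly-A -0.27). Rrs1, also early, was called higher at 24 h by 1.49 and at 72 h by 0.63 (poly-A -0.040), with 0.16 at 6 h. That 6 h value was 0.25 and called with array medians centred (limma adjusted p = 0.0194). Nip7 had the smallest 24 h difference of the 14, with 10.40, 10.51 and 10.46 in DMSO and 11.30, 11.30 and 11.36 treated, which gave 0.87 (poly-A -0.20). Its differences of 0.13 at 6 h and -0.14 at 72 h were not called, but with array medians centred they were 0.22 and -0.23 and called (limma adjusted p = 0.00995 and 0.00677).

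The last role holds proteins that are abundant in the nucleolus and act at several steps. All 3 measured members were called higher at 24 h on the deposited scale, and 1 of the 3 stayed above 0 on the poly-A scale. Mybbp1a, a Myb-binding protein of the nucleolus, read 9.79, 9.77 and 9.45 in DMSO and 10.97, 11.01 and 10.85 treated at 24 h, a difference of 1.27 ± 0.11 (SE), or 2.42-fold. It was higher by 0.37 at 6 h (poly-A -0.25), a call lost without DMSO replicate 2 (limma adjusted p = 0.051), and its 72 h difference of 0.17 was not called. Ncl, the RNA-binding protein nucleolin, had the smallest 24 h difference of the 3, with 13.67, 13.76 and 13.85 in DMSO and 14.20, 14.28 and 14.46 treated, which gave 0.55 (poly-A -0.52). At 6 and 72 h it differed by -0.032 and -0.15, neither of them called. Ddx21, an RNA helicase of ribosomal DNA transcription and RNA processing, differed by -0.025 at 6 h (not called), was higher by 0.76 at 24 h (poly-A -0.32) and fell by 0.31 at 72 h. With the mean of its probe sets the 72 h value was -0.29 and not called (limma adjusted p = 0.0556).

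**Figure D3:**
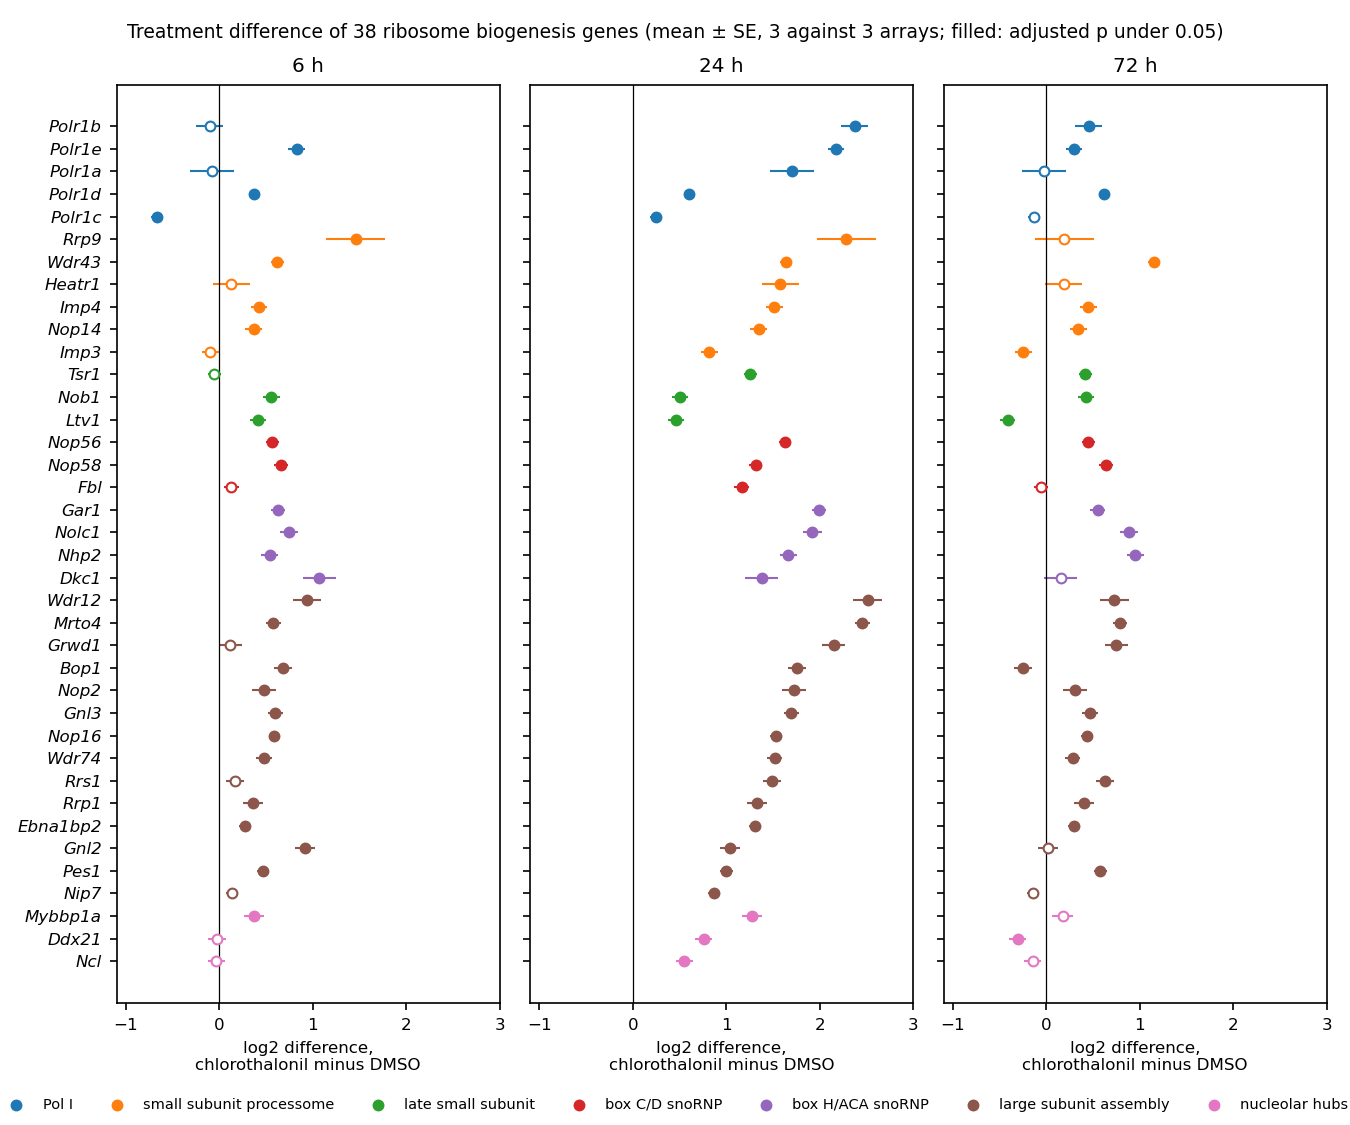
Log2 difference of chlorothalonil minus DMSO for each of the 38 members at 6, 24 and 72 h on the deposited scale, by role; points are means of 3 against 3 arrays, bars are standard errors, and filled points have a limma adjusted p under 0.05. All 38 points are filled and above 0 at 24 h, from 0.25 for Polr1c to 2.51 for Wdr12, while on the poly-A scale 28 lie above 0.

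**Figure D4:**
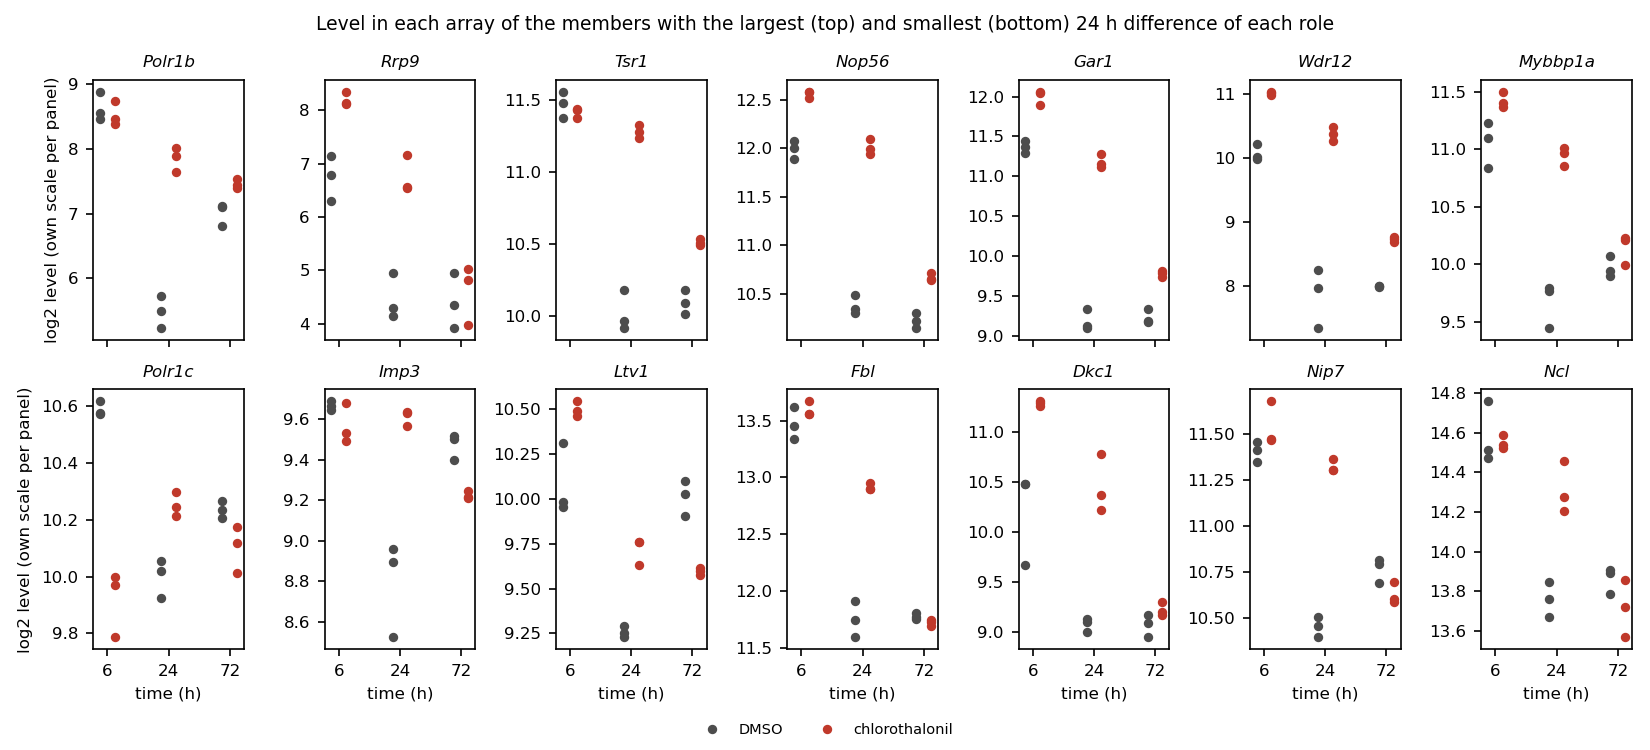
Log2 level in each array, each panel on its own scale, against time in hours for the members with the largest (top row) and smallest (bottom row) 24 h difference of each role. Treated and DMSO arrays do not overlap at 24 h in any of the 14 panels on the deposited scale, and the treated arrays lie below the DMSO arrays for Polr1c at 6 h and for Polr1c, Imp3, Ltv1 and Fbl at 72 h; on the poly-A scale the 24 h difference turns for Polr1c, Imp3, Ltv1, Nip7 and Ncl.

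Some members have further probe sets, which were not used to represent them. At 24 h those of Mrto4, Imp4, Wdr43, Nop56 and Ddx21 differed in the same direction as the chosen one, by 2.26, 2.28, 1.12, 1.94 and 1.52, and 2 further ones of Nolc1 gave 1.92 and 1.98. A second probe set of Polr1d gave -0.050 ± 0.058 (SE) at 24 h, where the chosen one gave 0.60. At 72 h the probe sets of several genes had opposite signs. Second probe sets gave -0.25 for Polr1d, -0.23 for Mrto4, -0.34 for Imp4 and -0.13 for Wdr43, where the chosen ones gave 0.62, 0.79, 0.45 and 1.15. For Nolc1 the further ones gave -0.25 and 1.19 against 0.88. The 72 h direction of these 5 genes thus depends on the probe set. A further probe set of Nolc1 and one of Gnl2 were not above log2 4 in any array.

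The change of the treatment difference between times was tested in the same model. From 6 to 24 h it was called higher in 33 of the 38 members and lower in 0, against 39.6% and 23.4% of all genes, with a median change of 1.03 against 0.16 for all genes. It was largest for Polr1b at 2.48, Grwd1 at 2.04, Mrto4 at 1.88 and Polr1a at 1.78. The 5 not called were Rrp9, Nob1, Ltv1, Dkc1 and Gnl2. Rrp9 changed by 0.83 with an SE of 0.44, and Nob1, Ltv1, Dkc1 and Gnl2 by -0.052, 0.048, 0.31 and 0.12. From 24 to 72 h the change was called lower in 36 members and higher in 0, against 29.8% and 27.9% of all genes, with a median of -1.07. It was largest for Rrp9 at -2.09, Bop1 at -2.01, Polr1b at -1.92 and Polr1e at -1.88. The 2 not called were Polr1d and Nob1. On the poly-A scale both medians kept their sign, at 0.57 and -0.66, with 4 members called higher and 7 called lower. Of all 9149 genes, 1491 and 1469 were called there in either direction. The 2 changes share the arrays of 24 h.

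Within DMSO, the members fell between 6 and 24 h. All 38 were called lower, 29 of them at least 2-fold, against 40% and 11.7% of all genes, with a median of -1.47 against -0.054. The largest changes were in Polr1b, which fell by 3.16, Mrto4, which fell by 2.54, Heatr1, which fell by 2.38, and Rrp9, which fell by 2.27. On the poly-A scale the median was -1.28. Between 24 and 72 h the DMSO arrays changed little, with a median of 0.16 that turned to -0.065 on the poly-A scale. There 15 members were called higher and 5 lower on the deposited scale, against 36.3% and 24.3% of all genes, and the count lower was 3 without DMSO replicate 2 of 24 h. The largest were Polr1b at 1.53, Ltv1 at 0.75, Mrto4 at -0.72 and Gnl2 at 0.70.

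Within chlorothalonil the members fell in both steps, with a larger median in the second on the deposited scale and in the first with poly-A scaling (-0.80, then -0.63). Between 6 and 24 h 30 members were called lower and 1 higher, against 24.9% and 34.6% of all genes, with a median of -0.53. Only Rrp9 among them fell at least 2-fold, 1 of 38 members against 3.39% of all genes. Rrp9 fell by 1.45, Heatr1 fell by 0.93, Dkc1 fell by 0.83 and Gar1 fell by 0.82, the 4 largest changes, and the member that rose was Polr1c by 0.33. Between 24 and 72 h 36 members were called lower and 0 higher, against 33.3% and 39.5% of all genes, 15 of them at least 2-fold (8.48% of all genes), with a median of -0.81. Mrto4 fell by 2.38, Rrp9 fell by 2.15, Polr1e fell by 1.77 and Wdr12 fell by 1.64, again the 4 largest. These time comparisons share arrays with the treatment comparisons and are not separate evidence for them. Set against DMSO at 6 h, the treated members at 24 h had a median of -0.068, with 6 called higher and 11 lower, against 32.9% and 29% of all genes. Poly-A scaling, which shifts all genes of an array alike, gave a median of -0.95 with 30 called lower. The share of all genes called lower on that scale is not given here, so the 30 do not set the members apart. Heatr1 and Polr1b at -0.80 and -0.79, Ddx21 at -0.61 and Imp4 at 0.62 (poly-A -0.26) differed most, and for the other 21 members no difference was called.

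**Figure D5:**
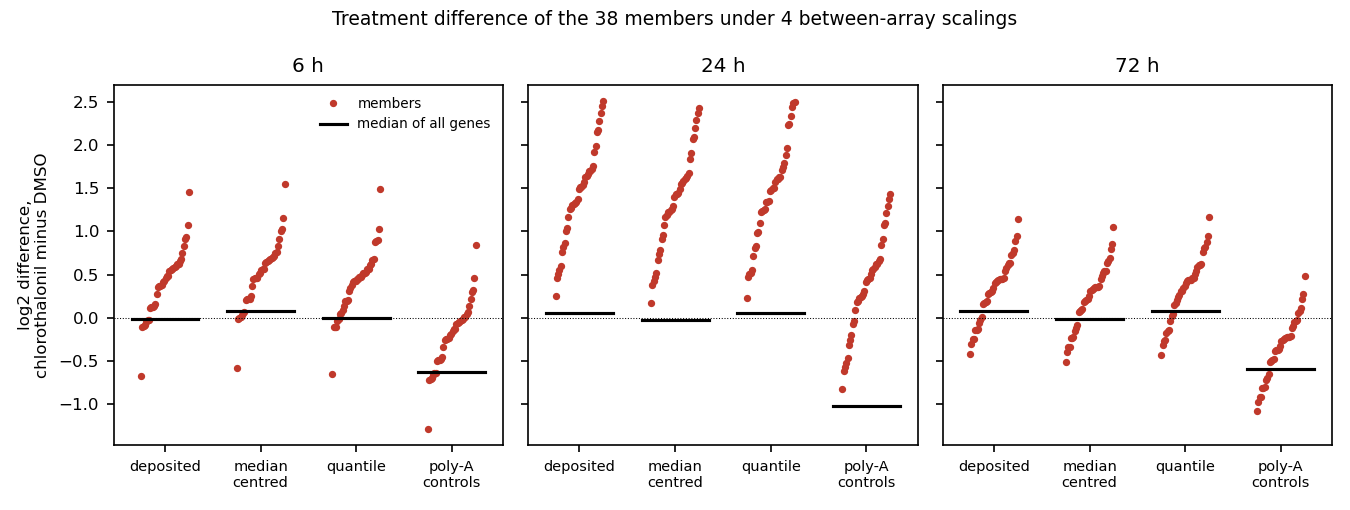
Log2 difference of chlorothalonil minus DMSO of the 38 members at 6, 24 and 72 h under 4 ways of scaling the arrays, with points for members in rank order and a bar for the median of all genes. On the poly-A scale the members' median turns to -0.17 at 6 h and -0.30 at 72 h and is 0.43 at 24 h, with all genes moved down by the same amount.

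Relative to the median of all genes, the members' medians were 0.46, 1.44 and 0.30 higher at 6, 24 and 72 h, a distance that poly-A scaling cannot alter, since it shifts all genes of an array alike. Every member lay above that median at 24 h, as did 31 of the 38 at 6 h and 28 at 72 h. Centring the arrays on their medians gave members' medians of 0.53, 1.42 and 0.28, and quantile normalization gave 0.44, 1.47 and 0.39.

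Other genes of the pathway, listed by function without the members and with earlier results of these data known, were also counted. Of 45 tested other small subunit factors, 42 were called higher at 24 h and 0 lower, with a median of 1.15. Among them were Emg1, a methyltransferase of the small subunit RNA, at 2.11, Utp3 at 1.15 and Rrp12, an export factor, at 2.82. Of 47 other large subunit factors, 45 were called higher and 0 lower, with a median of 1.09, and Zfp622, Noc2l and Lyar were at 2.04, 1.90 and 1.53. Other RNA polymerase I and ribosomal DNA transcription factors had 13 of 15 called higher and 0 lower, with a median of 0.57, and the 3 with the smallest p were Taf1d at 1.72, Polr1f at 1.21 and Polr2h at 1.43. Of 15 other snoRNP and modification factors 13 were called higher and 0 lower, with a median of 0.80, among them Bud23 at 1.48, Znhit6 at 1.25 and Ruvbl2 at 1.45. The RNA exosome, which trims the precursor ends, had 9 of 11 higher and 0 lower with a median of 0.53, and Exosc5 was at 2.07, Exosc7 at 0.90 and Exosc9 at 0.63. RNA polymerase III, which makes the smallest ribosomal RNA and transfer RNAs, had 12 of 19 higher and 1 lower with a median of 0.37, with Brf2 at 0.94, Polr3d at 0.63 and Polr3e at 1.0. These counts are on the deposited scale, on which 39.1% of all genes were called higher and 31.1% lower at that time, with a median of 0.057. Of the genes named, Exosc7, Exosc9, Brf2, Polr3d and Polr3e turned below 0 with poly-A scaling. That scaling gave medians of 0.079 for other small subunit factors and 0.019 for other large subunit factors. For the other 4 lists the median turned, to -0.51 for RNA polymerase I and ribosomal DNA transcription, -0.27 for snoRNPs, -0.55 for the exosome and -0.70 for RNA polymerase III.

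At 6 h the same lists were less uniform on the deposited scale. Other small subunit factors had 21 higher and 2 lower of 45, other large subunit factors 30 and 3 of 47, and RNA polymerase III 6 and 10 of 19 with a median of -0.22, where 27.8% of all genes were higher and 31.8% lower. At 72 h those counts were 18 and 7, 28 and 6, and 3 and 8, with medians of 0.18, 0.34 and -0.14, against 37.2% and 27% of all genes. The share of other small subunit factors called higher at 72 h was thus near that of all genes. With poly-A scaling the medians of both subunit lists turned, to -0.31 and -0.27 at 6 h and -0.49 and -0.33 at 72 h.

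The Myc family list holds the transcription factor and the partners and rivals that share the E-box. Myc read 8.53, 9.27 and 8.87 in DMSO and 10.40, 10.29 and 10.43 treated at 24 h. Its groups did not overlap at 6 or 24 h, and it was higher by 1.17 ± 0.20 (SE) at 6 h and by 1.48 at 24 h, with limma adjusted p of 0.000117 and 7.36e-06. With poly-A scaling Myc stayed above 0 at both times but was not called, and no gene of the list was called higher. At 72 h the arrays overlapped, with 8.03, 8.26 and 8.71 in DMSO and 8.55, 8.90 and 8.96 treated, and the difference of 0.47 (limma adjusted p = 0.0489) was not called without any 1 of 12 of the arrays, and was -0.20 on the poly-A scale. Of the 10 tested, 4 were called higher and 6 lower at 24 h on the deposited scale, against 39.1% and 31.1% of all genes, with a median of -0.36, so the share higher was near that of all genes. Max, the shared partner, was at 0.60 and Mlx at 0.78. Several repressors of the same site were lower, with Mxd4 at -1.24, Mnt at -0.53 and Mxi1 at -0.20. With the mean of its probe sets Mxi1 was at -0.13 and not called (limma adjusted p = 0.14). Mxd1 was higher by 0.29, and Max, Mxd1 and Mlx lay below 0 on the poly-A scale. Mga, at -0.89, and Mycn, at -0.93, were also lower, and so was Mxd3, which lay below log2 4 in all 3 treated arrays at 24 h and gets no size. Mxd1 lost its call without treated replicate 1 or DMSO replicate 3 of 24 h. Mxd3 lost it without treated replicate 2 or DMSO replicate 1 or 2, and Mga without treated replicate 2 or 3 or DMSO replicate 2 or 3.

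Of the 7 tested genes of ribosome surveillance and p53 sensing, 6 were called higher and 0 lower at 24 h on the deposited scale, against 39.1% and 31.1% of all genes, with a median of 0.29 that poly-A scaling turned to -0.78. Mdm2, the ligase that marks p53 for decay and is itself a p53 target, was higher by 1.61 and Cdkn1a, the p53-induced cell cycle inhibitor, by 0.94. Sesn2, a stress-induced target, was higher by 1.21 and Ddit4 by 0.29. The ribosomal proteins that bind Mdm2 moved little, with Rpl11 at 0.17, Rpl23 at 0.15 and Rpl5 at 0.047 (95% interval half-width 0.094, not called). Ddit4, Rpl11 and Rpl23 each lost the call in several alternatives, leaving out treated replicate 1 of 24 h among them for all 3, and on the poly-A scale these 3, Rpl5 and Cdkn1a lay below 0. Mdm2 and Sesn2 stayed above 0 on that scale but were not called, and 4 genes of the list were called lower there.

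The label of a proximal tubule cell was checked against marker genes. Of 13 proximal tubule markers on the array, 2 exceeded log2 4 in 3 or more arrays, Aqp1 and Ggt1, and the other 11, Slc34a1, Lrp2, Cubn and Hnf4a among them, did not. Aqp1, a water channel, exceeded it in the DMSO arrays at 72 h alone, at 6.95, 7.22 and 6.95. The summed level of the proximal tubule list was 9.05 to 9.33 treated and 8.83 to 8.86 in DMSO at 6 h, 8.66 to 9.0 and 7.27 to 7.42 at 24 h, and 6.67 to 6.88 and 7.56 to 7.73 at 72 h. These ranges did not overlap between treatments at any of the 3 times. Each sum follows its brightest genes, and only 2 of the 13 passed, with Aqp1 above log2 4 in DMSO at 72 h alone. Those 2 went opposite ways at 72 h on the poly-A scale, with 1 called higher and 1 lower. Of 9 epithelial markers 4 exceeded log2 4 (Krt7, Krt8, Ocln and Tjp1), and of 10 mesenchymal markers 6 did (Acta2, Col1a1, Col1a2, Col3a1, S100a4 and Vim). Of 6 markers of the distal nephron none did. Of 5 endothelial markers 1 did (Tek), of 4 podocyte markers 2 (Synpo and Wt1), and of 5 leukocyte markers 1 (Cd68). Cd68, a lysosomal protein that other cells make too, was called higher in treated arrays at all 3 times. It was below log2 4 in all DMSO arrays at 6 and 24 h. At 72 h it read 9.52, 9.61 and 9.23 in treated arrays and 3.39, 4.32 and 4.02 in DMSO, where 2 of 3 arrays were above log2 4, while Ptprc, Cd3e, Itgam and Laptm5 did not pass. At 24 h the summed level of the epithelial markers was 14.79 to 14.95 treated and 14.41 to 14.52 in DMSO. That of the mesenchymal markers was 15.48 to 15.52 and 15.54 to 15.58, and that of the podocyte markers 8.66 to 8.73 and 8.88 to 9.01. The leukocyte sum was 5.56 to 6.25 and 5.02 to 5.41, so these 4 sums did not overlap between treatments at 24 h. The endothelial sum was 4.59 to 4.79 and 4.78 to 5.23, and the distal nephron sum 4.79 to 4.87 and 4.83 to 4.94, both with overlap. The part of such markers in the members' differences was not tested.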

How the data were processed

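The values deposited by the authors are log2 levels of 31099 probe sets in 18 arrays, from GCRMA according to the submitters' processing notes (background correction, normalization between arrays and summary of probes; its version is not given in the sources used here). Such normalization sets each array against its own bulk of transcripts. All columns were used. Of the probe sets, 20832 have 1 gene symbol in the platform annotation, 436 several and 9831 none, and 20764 symbols were updated through the Entrez identifier with RefSeq (GRCr8). Probe sets with 1 symbol above log2 4 in at least 3 arrays were kept, the brightest per gene, which left 9149 genes. Arrays were grouped by their titles. A limma 3.58.1 model in R 4.3.3 with a mean for each of 6 groups (12 residual and 2.76 prior degrees of freedom) gave two-sided tests, Benjamini-Hochberg adjusted over all genes, called at 0.05. Errors are the model's standard errors. Arrays of a group correlated at 0.992 to 0.998 over the genes tested, which does not give the precision for a single gene. The fit was tested on simulated data. All members are named with their treatment differences. Arrays are printed for the largest and smallest 24 h difference of each role, 4 members for each change or time comparison, and for other lists the 3 smallest p at 24 h, or all of the Myc and p53 lists. Members and lists were chosen with earlier results of these data known. The alternatives were scaling (array medians, quantile, 24 poly-A control probe sets), filters, probe set choice, limma's trend, array weights, replicate blocks, single times and each array left out.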

Additional observations from a re-analysis of the deposited data

Results flagged for a closer look

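The treatment difference itself changed between times by a test of that change (limma, adjusted over all genes), and this singled out members as follows. From 6 to 24 h the change was called higher in 33 of 38 members (39.6% of all genes), and the 4 with the largest were Polr1b at 2.48, Grwd1 at 2.04, Mrto4 at 1.88 and Polr1a at 1.78. From 24 to 72 h it was called lower in 36 of 38 (29.8% of all genes), and the 4 with the largest were Rrp9 at -2.09, Bop1 at -2.01, Polr1b at -1.92 and Polr1e at -1.88. Both rest on the same arrays of 24 h. Groups of 3 arrays were too small to test for single arrays that stand apart in a member. Such arrays were only described, as for Dkc1 in DMSO at 6 h.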

How the results depend on the processing

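Scaling to the poly-A controls turned 59 values of named genes that were called on the deposited scale or after it (Rpl5 only after it), and no other alternative refitted here turned such a value. With poly-A scaling a further 49 values kept their sign but lost their call, and 3 gained one. Among values not called, poly-A scaling turned 5 members at 6 h and 5 at 72 h. Median centring turned Ddx21, Ncl, Polr1a and Tsr1 at 6 h and Gnl2 at 72 h, and quantile normalization turned Polr1a at 6 and 72 h. Taken singly, further probe sets of 5 members have the other sign at 72 h, although the mean of probe sets turned none. At 24 h these log2 differences became Polr1c -0.82, Polr1d -0.47, Imp3 -0.26, Nob1 -0.57, Ltv1 -0.61, Gnl2 -0.036, Pes1 -0.074, Nip7 -0.20, Ncl -0.52, Ddx21 -0.32, Exosc7 -0.17, Exosc9 -0.44, Brf2 -0.14, Polr3d -0.45, Polr3e -0.074, Max -0.48, Mxd1 -0.78, Mlx -0.29, Cdkn1a -0.13, Rpl5 -1.03, Rpl11 -0.90, Rpl23 -0.92 and Ddit4 -0.78. At 6 h they became Polr1d -0.24, Nop14 -0.25, Imp4 -0.19, Nob1 -0.058, Ltv1 -0.20, Nop56 -0.048, Nhp2 -0.073, Gnl3 -0.015, Nop2 -0.14, Nop16 -0.027, Wdr74 -0.14, Pes1 -0.15, Ebna1bp2 -0.34, Rrp1 -0.25, Mrto4 -0.037 and Mybbp1a -0.25. At 72 h they became Polr1b -0.22, Polr1d -0.055, Polr1e -0.38, Nop14 -0.33, Imp4 -0.22, Nob1 -0.25, Tsr1 -0.25, Nop56 -0.22, Nop58 -0.032, Gar1 -0.12, Gnl3 -0.21, Nop2 -0.36, Nop16 -0.24, Wdr74 -0.39, Pes1 -0.093, Ebna1bp2 -0.38, Rrp1 -0.27, Rrs1 -0.040 and Myc -0.20. For chlorothalonil at 24 h against DMSO at 6 h, Imp4 became -0.26. Under that scaling the members' median was -0.17 at 6 h, 0.43 at 24 h and -0.30 at 72 h, and its change was 0.57 from 6 to 24 h and -0.66 from 24 to 72 h. The median was -1.28 for DMSO at 24 h against 6 h, -0.065 for DMSO at 72 h against 24 h, -0.80 and -0.63 for the same steps in chlorothalonil, and -0.95 for chlorothalonil at 24 h against DMSO at 6 h. Members called were 1 higher at 6 h, 8 higher at 24 h, and 0 higher and 7 lower at 72 h. The change of effect was called higher in 4 and then lower in 7. In DMSO at 72 h against 24 h, 1 was higher and 1 lower, and in chlorothalonil 13 were lower in the first step and 15 in the second. At 24 h against DMSO at 6 h, 0 were higher and 30 lower. Of all genes, 3776 were called in either direction at 72 h, and 1491 and 1469 in the changes of effect. The DMSO time comparisons had 3033 and 1393, and those of chlorothalonil 1504 and 2962, in order of time. Counts of all genes at 6 h, at 24 h and for chlorothalonil at 24 h against DMSO at 6 h are not given here. With an array left out as well, an alternative added after seeing the data, the median was -0.26 without treated replicate 1, -0.049 without 2, -0.22 without 3, and -0.15, -0.25 and -0.11 without DMSO replicates 1, 2 and 3 at 6 h. At 24 h it was 0.55, 0.30 and 0.42 without treated and 0.81, 0.31 and 0.093 without DMSO replicates in the same order, and at 72 h -0.11, -0.39, -0.38, -0.29, -0.28 and -0.31. The cause was not tested.

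Centring on array medians gave members' medians of 0.53, 1.42 and 0.28 at 6, 24 and 72 h, 0.86 for the change from 6 to 24 h, -1.37 for DMSO at 24 h against 6 h and -0.89 for chlorothalonil at 72 h against 24 h. The mean of a gene's probe sets gave 0.29 at 72 h, -1.16 for the change from 24 to 72 h and -1.62 for DMSO at 24 h against 6 h. Array weights gave 7 members lower at 72 h and 2 higher in chlorothalonil at 24 h against 6 h, as did quantile normalization in the latter with 2. With each array left out, members called higher were 26 at 6 h, 38 at 24 h and 22 to 24 at 72 h, with medians of 0.42 to 0.48, 1.41 to 1.54 and 0.32 to 0.44, and those lower were 1, 0, and 2 to 5. The DMSO count at 72 h against 24 h was 14 to 17 higher and 3 to 6 lower, and in chlorothalonil at 24 h against 6 h 1 to 2 were higher, the 2 without treated replicate 3 or DMSO replicate 2 or 3 of 24 h. With each array left out in turn, 13 values of named genes lost their call at least once and 3 gained one (Fbl at 6 h, Nip7 and Polr1c at 72 h). The median of treated arrays at 24 h against DMSO at 6 h ran from -0.10 to 0.0062, above 0 without DMSO replicate 3 of 6 h. Same-numbered arrays correlated at -0.044 to 0.31 in their deviations, over 0.1 in 3 of 9 pairs. Arrays of different number at the same time correlated at -0.22 to 0.21. The numbers were not used as a pairing, although so few arrays cannot exclude one. The fit with the replicate number as a block gave members' medians of 0.45, 1.5 and 0.37 and 38 members higher at 24 h, and changed no call of a named gene. The 95% interval of a member's treatment difference reaches from 0.12 (Polr1d) to 0.67 (Rrp9) log2 units to either side, which limits what 3 arrays a group can show.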
